A study of Mus musculus with 8 samples.

Results

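The genes described here encode 10 glycoproteins and small proteoglycans of the extracellular matrix: Fn1, Postn, Sparc, Thbs1, Thbs2, Fbn1, Eln, Lum, Dcn and Bgn. They were taken by symbol from a table of 23366 gene symbols, taking for each symbol the transcript row that collected most counts, and all 10 were in the table. The cells were C57BL/6 mouse embryonic fibroblasts (MEFs), primary connective tissue cells, at passages 3 to 5, whose RNA was sequenced in 8 libraries, 4 groups of 2. The groups were wild-type (WT) cells and cells labelled kdm3a KO, for a histone demethylase gene, each fed (0 h, DMEM with 10% serum) or starved of glucose for 12 h (glucose-free DMEM with 10% dialyzed serum). Starvation therefore included a change of medium, dialyzed serum and 12 h of time, which cannot be told apart from the loss of glucose. The labels give no sex or embryo of origin and no details of the allele, and do not say that replicates were separate cultures, so each p-value rests on the spread of these libraries alone, which may be technical.

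Matrix glycoproteins are secreted by fibroblasts and build or regulate the scaffold outside the cell. Fibronectin and the fibrillin and elastin fibres are structural, while thrombospondins, SPARC and periostin are matricellular proteins that tune how cells attach to the matrix and respond to growth factors. Lumican, decorin and biglycan are small leucine-rich proteoglycans, which carry glycosaminoglycan chains on a leucine-rich repeat core and bind collagen fibrils.

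Library totals, with 1 row per gene, ran from 38407520 to 53602289 counts. Levels are given as CPM, counts divided by library totals that were adjusted by the TMM factors of edgeR. Kdm3a, the targeted gene, had 56.1 and 56.4 CPM in fed WT, 176 and 185 CPM in starved WT, 55.2 and 55.4 CPM in fed KO-labelled and 65.4 and 66.7 CPM in starved KO-labelled libraries. The fed groups lay close together and the KO-labelled group was lower when starved, so the cells are called KO-labelled and every direction between genotypes rests on the label. A deleted exon would not be visible in a count over all exons. Xist ranged over 0.939 to 1.54 CPM in WT and over 869 to 1369.9 CPM in KO-labelled libraries, and 4 Y-linked genes had 296 to 1251 counts in each WT library against 0 to 2 in each KO-labelled library, so genotype and the sex of the cells cannot be told apart. Of the fibroblast markers, Col1a1, Col1a2, Pdgfra, Pdgfrb, Thy1, Vim, Twist1 and Prrx1 were read in each group and Tcf21 was at 0 in all 8 libraries. The macrophage and blood genes Ptprc, Emr1 and Hbb-b1, the endothelial genes Tie1 and Emcn and the muscle genes Myod1 and Myog were at 0 in all 8 libraries. Other markers of the same cell types were read. In means, Cd68 was at 40.8 CPM and Csf1r at 6.23 CPM in starved KO-labelled cells. Kdr was at 53.8 CPM in starved WT and Des at 1.54 CPM in fed KO-labelled cells.

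The Fn1 transcript can include or skip the EIIIB (also EDB) and EIIIA (also EDA) exons, which encode extra fibronectin type III repeats. Their sequences are shown because the share of Fn1 counts that each added was lower in every KO-labelled than in every WT library. Both are from the GENCODE M21 transcript of row NM_010233, on the minus strand of the GRCm38 build, and each holds a whole number of codons. EIIIB is exon 25 of 46 (chr1:71613763-71614035, 273 bases, 91 codons) and EIIIA is exon 33 of 46 (chr1:71603660-71603929, 270 bases, 90 codons).
EIIIB: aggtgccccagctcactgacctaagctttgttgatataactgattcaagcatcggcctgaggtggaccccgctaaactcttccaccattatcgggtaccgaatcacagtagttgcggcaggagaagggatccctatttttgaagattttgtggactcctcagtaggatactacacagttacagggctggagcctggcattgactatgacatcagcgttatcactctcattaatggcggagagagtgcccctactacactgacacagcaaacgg
EIIIA: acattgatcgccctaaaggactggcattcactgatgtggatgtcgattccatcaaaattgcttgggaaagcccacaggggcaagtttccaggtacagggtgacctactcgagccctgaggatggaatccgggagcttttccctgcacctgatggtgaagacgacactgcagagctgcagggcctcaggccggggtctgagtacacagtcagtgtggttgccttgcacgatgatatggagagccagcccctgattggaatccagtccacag

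Promoter sequences from RefSeq (GRCm38.p6) matched 5 of the 10 members: Fbn1, Postn, Sparc, Thbs2 and Bgn. The 250 bases upstream of the annotated start are shown for Postn, Sparc and Bgn, 3 genes with unlike patterns across the groups, whose annotated start lay at the start of the counted transcript. Capitals mark matches, on either strand, to 10 motifs searched: the TATA box TATAAA, the CCAAT box (spelled by its name), the GC box GGGCGG, the AP-1 site TGANTCA, the TEAD site ACATTCC, the SMAD box CAGAC, the CHOP-ATF4 composite element TGATGNAA, the UPR element TGACGTGG, the E-box CACGTG and the ER stress response element, which contains a CCAAT box.
Postn, chr3:54360857-54361106, plus strand: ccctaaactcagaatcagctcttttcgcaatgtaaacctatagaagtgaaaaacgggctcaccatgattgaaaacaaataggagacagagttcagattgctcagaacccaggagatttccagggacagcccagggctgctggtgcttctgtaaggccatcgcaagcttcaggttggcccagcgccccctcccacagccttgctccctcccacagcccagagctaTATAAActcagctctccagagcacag
Sparc, chr11:55420081-55420330, minus strand: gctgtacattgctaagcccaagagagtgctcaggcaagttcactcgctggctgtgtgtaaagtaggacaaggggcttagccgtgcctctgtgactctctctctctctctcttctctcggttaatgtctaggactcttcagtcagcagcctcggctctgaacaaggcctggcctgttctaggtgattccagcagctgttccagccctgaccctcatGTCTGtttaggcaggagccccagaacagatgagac
Bgn, chrX:73483351-73483600, plus strand: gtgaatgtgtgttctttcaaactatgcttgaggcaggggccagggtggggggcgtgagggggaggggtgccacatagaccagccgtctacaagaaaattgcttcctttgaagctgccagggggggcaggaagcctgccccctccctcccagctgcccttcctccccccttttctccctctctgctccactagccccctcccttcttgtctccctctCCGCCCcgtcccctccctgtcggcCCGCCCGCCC
The Postn window held a TATA box at -26 from the start, a motif found in 12.4% of 32851 promoters. The Sparc window held 1 SMAD box at -35 (42.2% of promoters hold one), and the Bgn window held GC boxes at -34, -10 and -6, the last 2 overlapping (32.7%). None of the 5 members with a promoter held the AP-1, TEAD, CHOP-ATF4, UPR, E-box or ER stress response letters in this window, which 6.75%, 3.25%, 3.45%, 0.563%, 6.02% and 0.113% of promoters hold.

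The first comparison asked how the members' RNA differed after 12 h without glucose. The matricellular genes Sparc, Thbs1 and Thbs2 and the microfibril gene Fbn1 fell in both genotypes. Fn1, Bgn and Postn, which is also a matricellular gene, rose in both. Lum and Dcn, at low levels in WT, fell in KO-labelled cells. In WT, 3 of the 9 tested members were called higher and 4 lower, where 36.7% of all 14418 tested genes were called higher and 44.8% lower (81.6% in all; edgeR quasi-likelihood F test, Benjamini-Hochberg threshold 0.05). In KO-labelled cells 3 were higher and 6 lower, where 39.4% of genes were called higher and 40.3% lower (79.7% in all). So large a share of genes was called in each comparison that a call by itself does not set the members apart. Over the 8 tested members other than Lum, which had 2 counts or fewer in each WT library, the median log2 fold change was -0.74 in WT against -0.17 for all genes. In KO-labelled cells it was -0.33 over the same 8 and -0.42 over all 9, against -0.02 for all genes. In bulk RNA, fewer cells expressing a gene and less RNA per cell cannot be told apart.

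**Figure D1:**
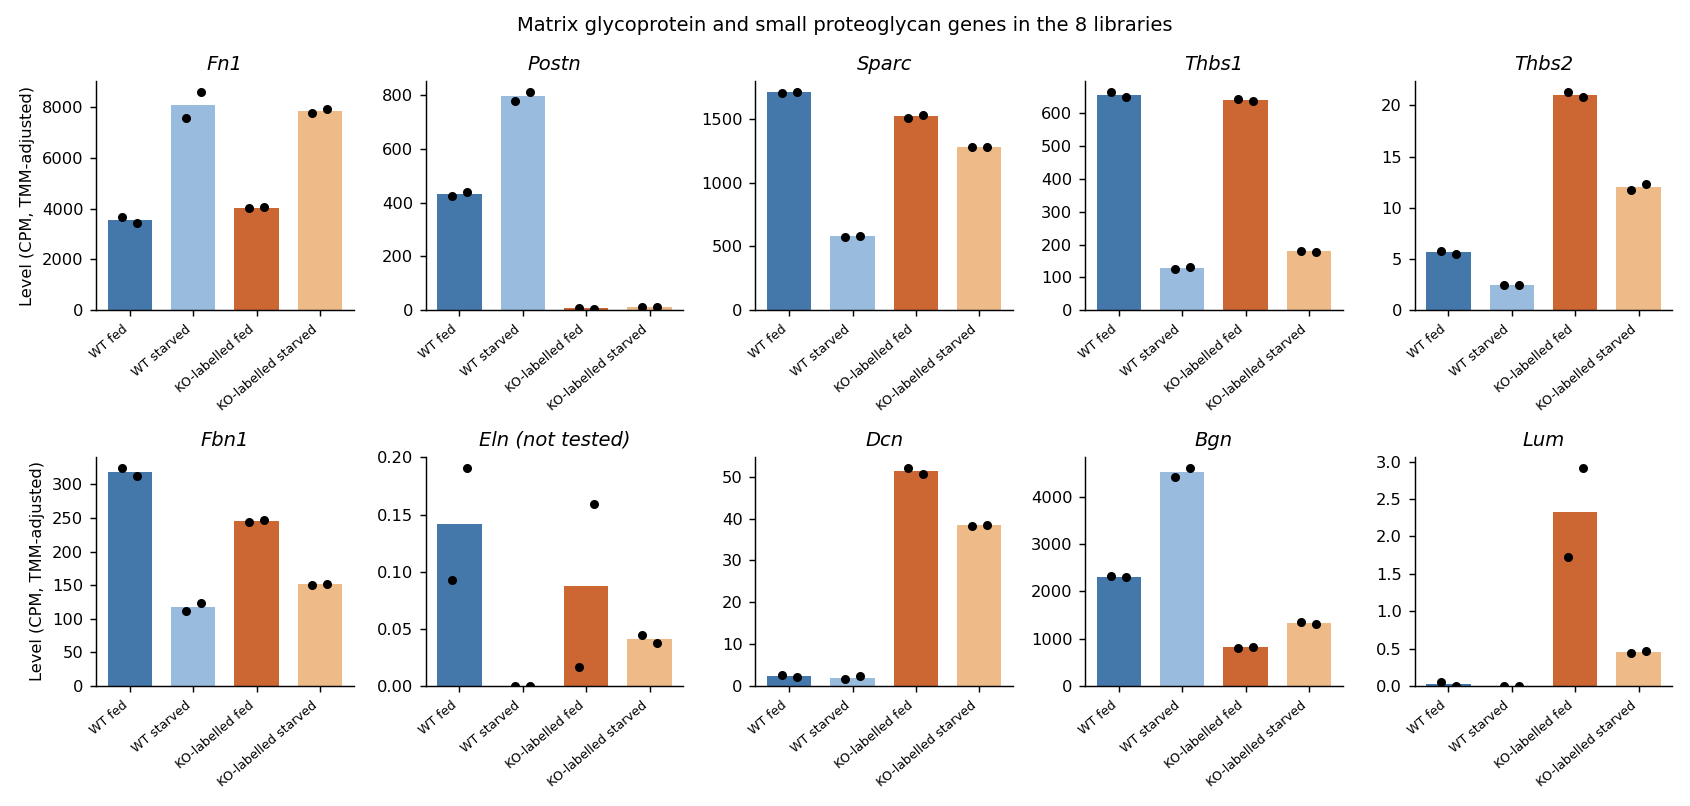
Level of each of the 10 genes in CPM (linear axis from 0, its own range in each panel) in the 4 groups. Bars are means of 2 libraries and points the libraries: Fn1, Postn and Bgn are higher in starved than in fed cells of both genotypes, and Postn is close to 0 in KO-labelled cells.

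Fn1 encodes fibronectin, the adhesive glycoprotein that cells assemble into the first matrix fibrils. It was read at 3663 and 3450.1 CPM in fed WT, 7575 and 8597 CPM in starved WT, 4017 and 4047 CPM in fed KO-labelled and 7781 and 7926 CPM in starved KO-labelled libraries. All 4 starved libraries lay above all 4 fed ones, and the starved groups overlapped. Starvation raised Fn1 by 1.18 ± 0.038 on the log2 scale in WT (log2 fold change ± SE; edgeR adjusted p = 2.31e-17) and by 0.96 ± 0.038 in KO-labelled cells. Fed KO-labelled cells were called higher than fed WT cells by 0.18 ± 0.038, and the starved groups differed by -0.04 ± 0.038 (edgeR adjusted p = 0.31), a value that turned to a called 0.27 with scaling by library totals and to a called -0.19 without starved WT replicate 1.

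Postn encodes periostin, a matricellular protein that links fibronectin and collagen. It was read at 426 and 438 CPM in fed WT, 779 and 811 CPM in starved WT, 6.71 and 6.44 CPM in fed KO-labelled and 11.7 and 11.3 CPM in starved KO-labelled libraries. The genotypes did not overlap in either condition. KO-labelled cells were 65.6-fold lower when fed (log2 -6.04 ± 0.045; edgeR adjusted p = 1.08e-27) and 69.2-fold lower when starved (-6.11 ± 0.043). The rise with starvation on the log2 scale was 0.88 ± 0.031 in WT and 0.80 ± 0.061 in KO-labelled cells, and the difference of -0.08 ± 0.069 did not pass (edgeR adjusted p = 0.334) and was 0.12 with library totals.

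Sparc encodes the collagen-binding protein SPARC (osteonectin), which acts in collagen assembly. It was read at 1707 and 1712 CPM in fed WT, 575 and 584 CPM in starved WT, 1508 and 1532 CPM in fed KO-labelled and 1282 and 1282 CPM in starved KO-labelled libraries. No groups overlapped, and the starved WT libraries were far below the other 6. Starvation lowered Sparc 2.95-fold in WT (-1.56 ± 0.024) and 1.19-fold in KO-labelled cells (-0.25 ± 0.024), a difference of 1.31 ± 0.034 between the responses (edgeR adjusted p = 1.22e-17). When fed, KO-labelled cells differed from WT by -0.17 ± 0.024 on the log2 scale, and when starved by 1.15 ± 0.024.

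Thbs1 and Thbs2 encode thrombospondins 1 and 2, matricellular proteins that restrain blood vessel growth, of which thrombospondin 1 also activates latent TGF-beta. Thbs1 was read at 665 and 649 CPM in fed WT, 127 and 131 CPM in starved WT, 645 and 638 CPM in fed KO-labelled and 182 and 178 CPM in starved KO-labelled libraries. Starved libraries were low in both genotypes, and lowest in WT. Thbs1 fell 5.10-fold in WT (-2.35 ± 0.031; edgeR adjusted p = 9.72e-24) and 3.57-fold in KO-labelled cells (-1.84 ± 0.030). The genotypes differed by -0.03 ± 0.028 when fed (edgeR adjusted p = 0.274; its sign turned in 5 other settings, with a called 0.08 with library totals) and by 0.48 ± 0.031 when starved.

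Thbs2 was read far lower, at 5.79 and 5.50 CPM in fed WT, 2.43 and 2.45 CPM in starved WT, 21.3 and 20.8 CPM in fed KO-labelled and 11.7 and 12.3 CPM in starved KO-labelled libraries. Every KO-labelled library was above every WT library. Thbs2 was 3.73-fold higher in fed (1.90 ± 0.099) and 4.93-fold higher in starved KO-labelled cells (2.30 ± 0.13) than in WT. It fell with starvation by 1.21 ± 0.14 on the log2 scale in WT (edgeR adjusted p = 6.62e-08) and by 0.81 ± 0.089 in KO-labelled cells. The starved WT value rests on 160 counts in 2 libraries.

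**Figure D2:**
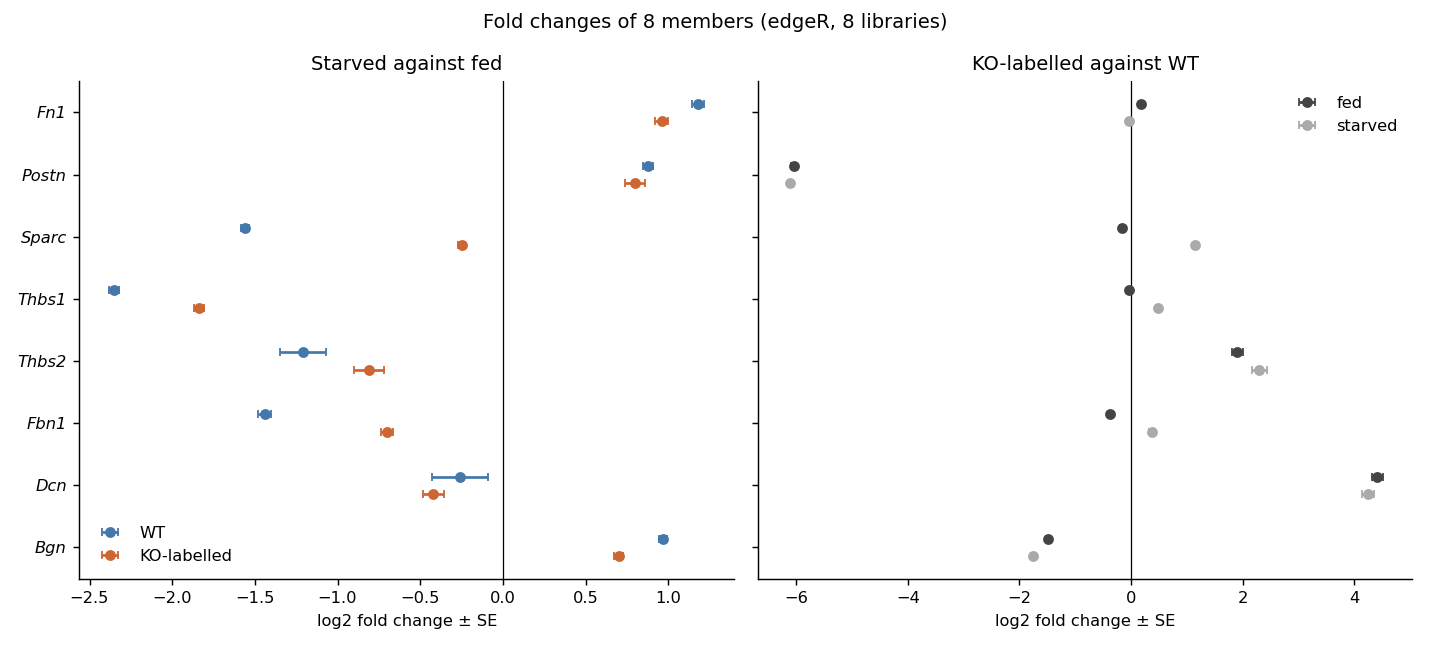
Log2 fold changes with SE (edgeR, all 8 libraries) of 8 tested members: starved against fed in each genotype (left) and KO-labelled against WT in each condition (right); Lum is left out because WT held 2 counts in all. Postn (-6.04 and -6.11) and Dcn (4.41 and 4.25) are farthest from 0 between genotypes, and Sparc differs most between the 2 starvation responses.

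Of the elastic fibre genes, Fbn1 encodes fibrillin-1, the main microfibril protein, and Eln encodes tropoelastin. Fbn1 was read at 325 and 312 CPM in fed WT, 111 and 123 CPM in starved WT, 244 and 247 CPM in fed KO-labelled and 151 and 152 CPM in starved KO-labelled libraries. The 4 groups did not overlap, and their order by genotype turned between conditions: KO-labelled cells were lower when fed (-0.38 ± 0.037; edgeR adjusted p = 9.60e-09) and higher when starved (0.37 ± 0.040; edgeR adjusted p = 2.50e-08). Fbn1 fell by 1.44 ± 0.039 on the log2 scale in WT and by 0.70 ± 0.038 in KO-labelled cells. Eln had 4 and 8 counts in fed WT, 0 and 0 in starved WT, 1 and 8 in fed KO-labelled and 2 and 2 in starved KO-labelled libraries. It did not pass the filter on low counts and was not tested, and differences in it were not detectable at this depth.

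Bgn, Dcn and Lum encode the small leucine-rich proteoglycans biglycan, decorin and lumican. Bgn, which lies on the X chromosome, was read at 2316 and 2297 CPM in fed WT, 4423 and 4616 CPM in starved WT, 808 and 831 CPM in fed KO-labelled and 1343 and 1319.8 CPM in starved KO-labelled libraries. Every WT library was above every KO-labelled library. Bgn rose with starvation 1.96-fold in WT (0.97 ± 0.025; edgeR adjusted p = 5.69e-19) and 1.63-fold in KO-labelled cells (0.70 ± 0.025). It was 2.82-fold lower in KO-labelled cells when fed (-1.49 ± 0.026) and 3.39-fold lower when starved (-1.76 ± 0.026).

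Dcn moved the other way between the genotypes. It was read at 2.57 and 2.25 CPM in fed WT, 1.66 and 2.36 CPM in starved WT, 52.2 and 50.6 CPM in fed KO-labelled and 38.3 and 38.6 CPM in starved KO-labelled libraries. KO-labelled libraries were high in both conditions, and the WT groups overlapped. Dcn was 21.3-fold higher in fed (4.41 ± 0.098; edgeR adjusted p = 8.36e-20) and 19.1-fold higher in starved KO-labelled cells (4.25 ± 0.11). With starvation it fell by 0.42 ± 0.066 on the log2 scale in KO-labelled cells (edgeR adjusted p = 6.72e-06) and differed by -0.26 ± 0.17 in WT (edgeR adjusted p = 0.163), which was a called -0.72 with library totals and 0.04 without starved WT replicate 1.

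Lum lies beside Dcn on chromosome 10, in a run of small proteoglycan genes with Kera and Epyc (RefSeq gene order, GRCm38.p6). It had 2 and 0 counts in fed WT, 0 and 0 in starved WT, 107 and 147 in fed KO-labelled and 20 and 25 in starved KO-labelled libraries. As with Dcn, every KO-labelled library was above every WT library. It passed the filter on low counts through the KO-labelled libraries alone, so a difference from WT was given by the filter and is left out of the counts between the genotypes. The ratio of fed KO-labelled to fed WT cells was 96.3 (95% Clopper-Pearson interval 26.4 to 799.8, counting error only), and starved KO-labelled cells were at least 5.02-fold higher than starved WT, set at 3 counts per library. Within KO-labelled cells Lum fell by 2.33 ± 0.41 on the log2 scale with starvation (edgeR adjusted p = 2.98e-05).

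Between the genotypes, of the 8 tested members other than Lum, 3 were higher in fed KO-labelled cells (Fn1, Thbs2 and Dcn) and 4 lower (Postn, Sparc, Fbn1 and Bgn), where 34.5% of all tested genes were called higher and 39.8% lower (74.4% in all). In starved cells 5 were higher (Sparc, Thbs1, Thbs2, Fbn1 and Dcn) and 2 lower (Postn and Bgn), where 41.9% of genes were higher and 37.7% lower (79.6% in all). The median of these 8 was -0.10 in fed and 0.43 in starved cells, against -0.06 and 0.07 for all genes. With scaling by library totals Thbs1 was added to those called higher when fed and Fn1 to those called higher when starved. Fn1 was instead called lower when starved with DESeq2 size factors (-0.1) and without a filter (-0.04). It was -0.19 without starved WT replicate 1. The comparisons share libraries: each group enters both a starvation and a genotype comparison.

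Cell type markers also moved with genotype and with starvation, and their part in these differences was not tested. Of all tested genes 34.5% were called higher and 39.8% lower between fed genotypes, and 41.9% and 37.7% between starved genotypes. With starvation the shares were 36.7% higher and 44.8% lower in WT, and 39.4% and 40.3% in KO-labelled cells. The summed level of 5 smooth muscle and contractile markers was 2866 to 2879 CPM in fed WT, 4784 to 4836 CPM in starved WT, 121 CPM in both fed KO-labelled and 749.8 to 755 CPM in starved KO-labelled libraries, with Myocd at 0 in WT. Of its 4 tested genes, 4 were lower and 0 higher in fed and 3 and 0 in starved KO-labelled cells. With starvation 2 were higher and 1 lower in WT, and 4 higher and 0 lower in KO-labelled cells. The 9 fibroblast markers summed to 15824 to 16215 CPM in fed WT and 5917 to 5989 CPM in fed KO-labelled libraries, and to 12392 to 12415 and 5157 to 5172 CPM when starved, with 6 of 8 tested lower and 1 higher in fed and 5 and 3 in starved KO-labelled cells. With starvation 6 of the 8 were lower and 2 higher in WT, and 7 lower and 1 higher in KO-labelled cells. The sum joins opposite moves: mean Col1a1 was 4662 CPM in fed and 247 CPM in starved WT and Col1a2 6109.8 and 367 CPM, while Vim was 4397 and 11359 CPM. The 6 cartilage and bone markers summed to 367 to 378 CPM in fed WT and 68.3 to 72.3 CPM in fed KO-labelled libraries, with Sp7 at 0 in the latter, and to 229 to 244 and 54 to 55.5 CPM when starved, with 4 of 4 tested lower when fed and 3 lower and 1 higher when starved. The 4 adipocyte markers, nearly all of it Fabp4, summed to 10.9 to 11 CPM in fed WT and 59.8 to 60.3 CPM in fed KO-labelled libraries, and to 6.12 to 8.87 and 30.6 to 30.9 CPM when starved, with Plin1 and Lep at 0 in each group. The 6 neural markers summed to 251 to 252 CPM in fed WT and 58.3 to 58.8 CPM in fed KO-labelled libraries, and to 99.7 to 108 and 59.8 to 59.9 CPM when starved, with Sox10 at 0 in each group and 4 of 4 tested lower when fed and 2 lower and 1 higher when starved. Macrophage markers summed to at most 5.88 CPM except in starved KO-labelled libraries (47.4 to 47.6 CPM, mainly Cd68), endothelial markers to at most 5.5 CPM except in starved WT (52.9 to 54.9 CPM, mainly Kdr), epithelial markers to at most 2.83 CPM and skeletal muscle markers to at most 1.54 CPM.

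The comparison of the starvation responses, KO-labelled minus WT, asked whether the genotypes responded alike. The falls of Sparc (1.31 ± 0.034), Fbn1 (0.75 ± 0.054), Thbs1 (0.52 ± 0.042) and Thbs2 (0.40 ± 0.17; edgeR adjusted p = 0.0406) were smaller in KO-labelled cells, and so were the rises of Bgn (-0.27 ± 0.036) and Fn1 (-0.22 ± 0.053; edgeR adjusted p = 0.001). With library totals the differences of Bgn (-0.07) and Fn1 (-0.02) no longer passed. In all, 4 of 9 members were called higher and 2 lower, where 34.1% of all genes were called higher and 30.4% lower (64.5% in all). The Thbs2 call was lost in 10 settings (adjusted p 0.0617 to 0.268), among them DESeq2 and leaving out 1 of 6 libraries: fed WT replicate 1, either starved WT replicate, either fed KO-labelled replicate or starved KO-labelled replicate 2 (values of 0.27 to 0.43). Without starved WT replicate 1, 4 members were called lower, Postn (-0.23) and Dcn (-0.52) being added, and without starved WT replicate 2 Postn (-0.18) was added.

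Levels can be compared between genes only per length, here as mean CPM per kb of the GENCODE transcript ± SD (n = 2 libraries). In fed WT the order was Bgn (953 ± 5.8), Sparc (743 ± 1.5), Fn1 (428 ± 18), Postn (135 ± 2.6), Thbs1 (112 ± 1.9), Fbn1 (32.3 ± 0.94), Dcn (1.37 ± 0.13), Thbs2 (0.958 ± 0.034), and then Eln (0.0369 ± 0.018) and Lum (0.00946 ± 0.013), at 12 and 2 counts too few to order. Of the 3 small proteoglycans, Bgn thus led this order, Dcn stood far below it, and Lum had too few counts to place. In starved WT, Bgn (1868 ± 56) and Fn1 (972 ± 87) led, followed by Sparc (252 ± 2.7) and Postn (248 ± 7.2), which did not differ beyond their spread. In fed KO-labelled cells Sparc led (661 ± 7.4), before Fn1 (485 ± 2.6), Bgn (339 ± 6.7) and Thbs1 (109.7 ± 0.74). There Dcn (29.2 ± 0.64) stood above Fbn1 (24.9 ± 0.16), and Postn (2.05 ± 0.059) below Thbs2 (3.57 ± 0.064). In starved KO-labelled cells Fn1 led (944 ± 12), and Sparc (557 ± 0.031) and Bgn (550.4 ± 6.7) did not differ beyond their spread.

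**Figure D3:**
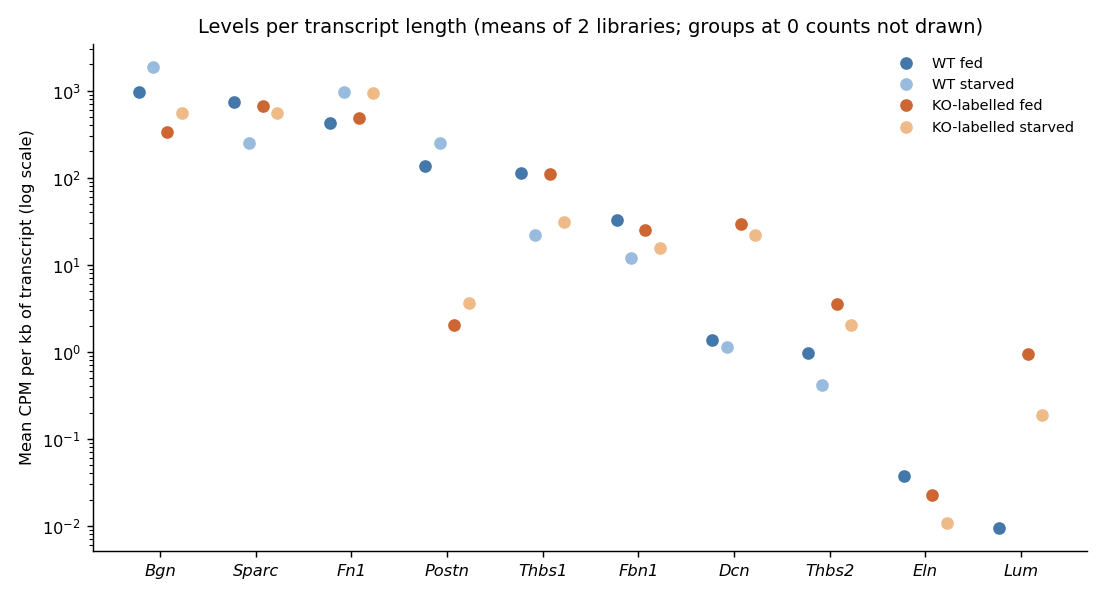
Mean level per kb of transcript (CPM per kb, log axis) of the 10 genes in the 4 groups, ordered by fed WT; groups with 0 counts are not drawn. Bgn, Sparc and Fn1 are at 252 or higher in all groups, whereas Postn and Dcn change places between the genotypes.

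The 7 deposited rows of Fn1 differ by optional stretches of the transcript, so the counts that a stretch adds can be read as the difference between rows. Row pairs that differ by the same stretch gave the same difference in all 8 libraries (largest disagreement 0 counts), and the 4 stretches added up to the full row NM_010233 with a residual of 0 counts. The counting mode is not stated. If any overlap with an exon counts, reads that also touch a neighbouring exon are in every row, and a share then understates how many transcripts hold the exon. The shares are therefore compared between libraries only, not between stretches. Intervals are 95% Wilson intervals and cover counting error only.

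EIIIB added 1.22% (1.17 to 1.28) and 1.16% (1.11 to 1.22) of Fn1 counts in the fed WT libraries and 1.37% (1.33 to 1.42) and 1.37% (1.33 to 1.41) in the starved WT libraries. It added 0.875% (0.839 to 0.913) and 0.894% (0.854 to 0.936) in fed and 0.916% (0.885 to 0.948) and 0.930% (0.901 to 0.960) in starved KO-labelled libraries. Every KO-labelled library was below every WT library, and the mean was 25.7% lower in fed and 32.7% lower in starved KO-labelled cells. Over the 4 WT and 4 KO-labelled libraries the mean shares were 1.28 ± 0.11% and 0.904 ± 0.024% (SD), and a two-sided exact permutation test of 4 against 4 gave p = 0.0286, its smallest, or 0.0429 adjusted over 3 stretches. That test treats fed and starved libraries as exchangeable. Permuting genotype only within each condition, among 36 arrangements, gave an exact p of 0.0556, again the smallest possible, or 0.0833 adjusted, which is not past 0.05. Both tests were chosen after the data were seen. A full separation of the genotypes fixes each at its smallest p, so the tests add nothing to that separation. Within a genotype, an exact test of 2 fed against 2 starved libraries cannot go below p = 0.333.

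EIIIA added 1.68% (1.61 to 1.74) and 1.64% (1.57 to 1.70) in fed WT and 1.66% (1.61 to 1.71) and 1.62% (1.57 to 1.67) in starved WT libraries. It added 1.49% (1.45 to 1.54) and 1.43% (1.38 to 1.48) in fed and 1.30% (1.27 to 1.34) and 1.27% (1.24 to 1.31) in starved KO-labelled libraries. The KO-labelled libraries were again all below the WT libraries, the WT groups overlapped, and the starved KO-labelled libraries were below the fed ones. The mean was 11.7% lower in fed and 21.4% lower in starved KO-labelled cells (exact permutation p = 0.0286 over 4 against 4 libraries, adjusted 0.0429, and within conditions 0.0556, adjusted 0.0833). As for EIIIB, the unadjusted values are the smallest possible and are fixed by the full separation.

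The longer part of the V region (chr1:71597388-71597672, GRCm38), a stretch that can be included whole, in part or not at all, added 3.69 to 4.07% of Fn1 counts in WT and 3.67 to 3.84% in KO-labelled libraries. Over both conditions the genotypes overlapped (exact permutation p = 0.143, the same when adjusted, and 0.167 within conditions). In fed cells they did not, at 3.87 and 4.07% in WT and 3.72 and 3.84% in KO-labelled libraries. The shares of EIIIA and EIIIB were lower in KO-labelled cells at a total Fn1 level 1.13-fold higher when fed. How coverage along the transcript moved between libraries was not tested.

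**Figure D4:**
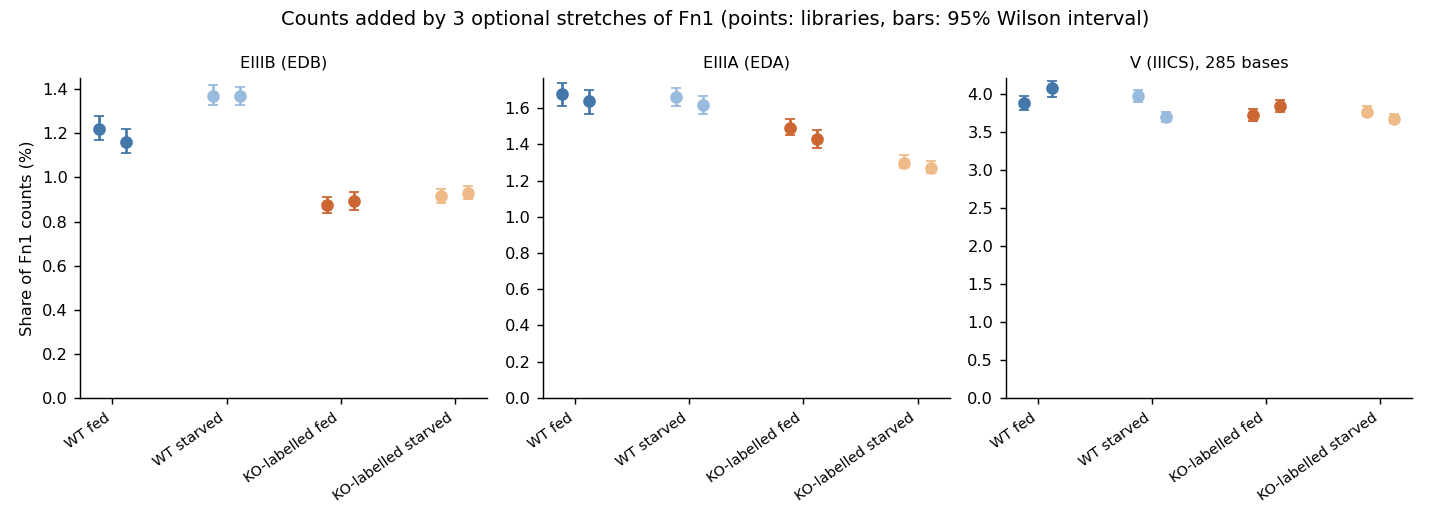
Share of Fn1 counts (%, axis from 0) added by the EIIIB exon, the EIIIA exon and the longer part of the V region in each library, with 95% Wilson intervals. The EIIIB and EIIIA points of all 4 KO-labelled libraries lie below those of the 4 WT libraries, and the V points of the genotypes overlap over both conditions.

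Other matrix genes were counted in 8 lists of genes that build, bind or modify the members' proteins. Of all tested genes 36.7% were called higher and 44.8% lower in WT starvation, 39.4% and 40.3% in KO-labelled starvation, 34.5% and 39.8% between fed and 41.9% and 37.7% between starved genotypes, and no list was tested as a set. Of the 22 elastic fibre and microfibril partners of Fbn1 and Eln, 14 fell and 5 rose with starvation in WT (median -0.88), and 12 fell and 5 rose in KO-labelled cells (median -0.32). Lox, the most abundant of them and the cross-linker of elastin and collagen, fell from 1085 ± 20 to 406 ± 13 CPM in WT and from 867 ± 1.1 to 633 ± 4.4 CPM in KO-labelled cells. Fbn2, fibrillin-2, fell 21.2-fold in WT and 7.33-fold in KO-labelled cells. Mfap2, a microfibril protein, had 1176 counts in fed WT and 6 in fed KO-labelled libraries, a ratio of 258 (95% interval 118 to 706). It passed the filter on low counts through groups other than fed KO-labelled, so this difference was in part given by the filter. Mfap2 is among those counted lower between fed genotypes. Ltbp2, a latent TGF-beta binding protein, was 4.26-fold higher in fed KO-labelled cells. Between fed genotypes 8 were higher and 14 lower, and between starved genotypes 11 and 9.

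Of 10 tested other small leucine-rich proteoglycan genes, 8 fell and 0 rose with starvation in WT (median -1.91, against -0.17 for all genes), and 7 fell and 2 rose in KO-labelled cells (median -1.28). Of all genes 44.8% fell and 36.7% rose in WT, and 40.3% and 39.4% in KO-labelled cells. At an unadjusted p under 0.05 edgeR also had 0 higher and 8 lower, and DESeq2 had 0 higher and 7 lower at its adjusted p, while Bgn rose. Ogn (osteoglycin), the most abundant, fell from 294 ± 9.2 to 37.7 ± 2.7 CPM in WT and from 82.5 ± 1.8 to 43.3 ± 2.8 CPM in KO-labelled cells. Prelp fell 59.3-fold in WT and 29-fold in KO-labelled cells, values that rest on 9 and 26 counts in the starved libraries. Between fed genotypes 2 were higher and 6 lower, where 34.5% of all genes were called higher and 39.8% lower. Ogn was among the lower (3.56-fold), the opposite direction to Dcn and Lum. Fmod (fibromodulin) was 8.33-fold higher in starved KO-labelled cells, where 4 were higher and 4 lower (41.9% and 37.7% of all genes).

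The enzymes that make the glycosaminoglycan chains of proteoglycans fell with starvation in 18 of 26 cases and rose in 2 in WT (median -0.67, or -0.74 with genes at 0 counts set at their bound), and fell in 17 and rose in 7 in KO-labelled cells (median -0.54), where 44.8% of all genes fell and 36.7% rose in WT and 40.3% and 39.4% in KO-labelled cells. Chst3, a chondroitin sulfotransferase, fell 13.3-fold and 14.1-fold. Csgalnact2, which starts chondroitin chains, rose 2.06-fold and 2.17-fold, and Ugdh, which makes the UDP-glucuronate building block, fell by 0.29 ± 0.032 and 0.47 ± 0.031 on the log2 scale. Between genotypes 16 were higher and 5 lower when fed (34.5% and 39.8% of all genes) and 16 higher and 6 lower when starved (41.9% and 37.7%). Chsy3, a chondroitin synthase, had 2 counts in fed WT and 521 in fed KO-labelled libraries (ratio 198, 95% interval 54.4 to 1636). It passed the filter on low counts through the KO-labelled libraries alone, so a difference from WT was given by the filter. Chsy3 is among those counted higher in both conditions.

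Of 13 large and cell-surface proteoglycan genes, 10 fell and 2 rose in WT (44.8% and 36.7% of all genes) and 7 fell and 4 rose in KO-labelled cells (40.3% and 39.4%). Vcan, the large matrix proteoglycan versican, fell from 975 ± 29 to 81.8 ± 7 CPM in WT and stood at 29.1 ± 0.12 CPM in fed KO-labelled cells, 33.5-fold below fed WT. Agrn (agrin) was 8.77-fold higher in fed KO-labelled cells. Hspg2 (perlecan), the most abundant, fell by 0.15 ± 0.051 on the log2 scale in WT and rose by 0.27 ± 0.050 in KO-labelled cells. Between genotypes 8 were higher and 3 lower when fed (34.5% and 39.8% of all genes), and 9 and 3 when starved (41.9% and 37.7%).

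Of 18 other matricellular genes, 10 fell and 4 rose in WT (44.8% and 36.7% of all genes) and 11 fell and 5 rose in KO-labelled cells (40.3% and 39.4%) with starvation. Wisp2 (CCN5) fell 19.9-fold and 16.7-fold and Fstl1, a SPARC relative and the most abundant, 2.83-fold and 2.58-fold, whereas Smoc2, another SPARC relative, rose from 6.42 ± 0.15 to 75 ± 3.1 CPM in WT and Tnc (tenascin-C) rose 2.72-fold in KO-labelled cells. Thbs4, a further thrombospondin gene, had 0 counts in fed WT and 125 in fed KO-labelled libraries, at least 15.8-fold higher, and 0 and 251 when starved, at least 28-fold higher, set at 3 counts per library. Thbs4 passed the filter on low counts through the KO-labelled libraries alone, so a difference from WT was given by the filter. Between genotypes 11 were higher and 5 lower when fed (34.5% and 39.8% of all genes), and 9 and 6 when starved (41.9% and 37.7%). Thbs4 is among those counted higher in both conditions.

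Of 17 genes for matrix receptors, 6 rose and 8 fell in WT (36.7% and 44.8% of all genes) and 8 rose and 7 fell in KO-labelled cells (39.4% and 40.3%) with starvation. Lrp1, an endocytic receptor of thrombospondins and the most abundant of them, differed by 0.03 ± 0.043 in WT (edgeR adjusted p = 0.468) and fell by 0.56 ± 0.043 on the log2 scale in KO-labelled cells. Itga11, an integrin chain of fibroblasts for collagen, was 27.2-fold lower in fed KO-labelled cells (79.8 ± 2.2 and 2.91 ± 0.4 CPM). Between genotypes 9 were higher and 3 lower when fed (34.5% and 39.8% of all genes), and 9 and 5 when starved (41.9% and 37.7%). Itga4, another integrin chain, had 0 counts in fed WT and 37 in fed KO-labelled libraries, at least 4.68-fold higher. It passed the filter on low counts through groups other than fed WT, so a difference from fed WT was in part given by the filter. Itga4 is among those counted higher when fed.

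Of 16 TGF-beta ligand, receptor and SMAD genes, 7 rose and 7 fell in WT (36.7% and 44.8% of all genes) and 6 rose and 9 fell in KO-labelled cells (39.4% and 40.3%). Tgfb3 fell 28.7-fold in WT, Tgfb2 fell 11.6-fold in KO-labelled cells, and Smad7, the inhibitory SMAD, rose 4.65-fold in WT. Between genotypes 8 were higher and 6 lower when fed (34.5% and 39.8% of all genes), and 7 and 8 when starved (41.9% and 37.7%). Of 12 basement membrane glycoprotein genes, 6 rose and 3 fell in WT, 5 rose and 4 fell in KO-labelled cells, 7 were higher and 4 lower in fed and 5 and 5 in starved KO-labelled cells. Lama2, a laminin chain, was 65.1-fold lower in fed (63 ± 1.8 and 0.969 ± 0.064 CPM) and 68.2-fold lower in starved KO-labelled cells, close to the values of Postn.

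**Figure D5:**
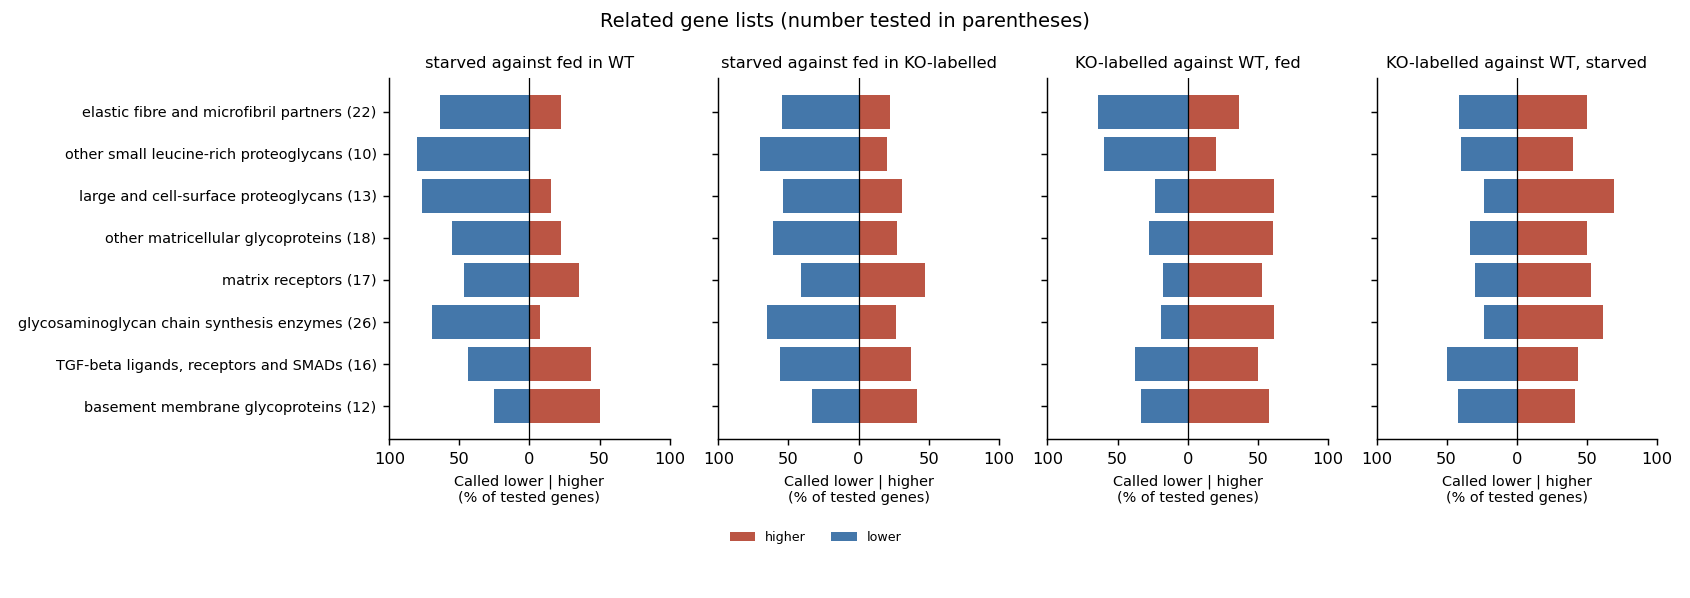
Share of tested genes called lower (left of 0) and higher (right of 0), in %, in the 8 related lists for each of 4 comparisons. The other small proteoglycans and the glycosaminoglycan enzymes have the smallest shares of genes called higher in WT starvation among the 8 lists, 0 of 10 and 2 of 26.

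The gene whose 4 group means were most like those of each member was found by the root mean square difference of centred log2 CPM over the 4 groups, with 0.01 CPM added. For Postn it was Lama2 (0.017), with means of 63 CPM in fed WT, 116 CPM in starved WT, 0.969 CPM in fed and 1.71 CPM in starved KO-labelled cells. For Fn1 it was Vps33a (0.026), for Sparc Pradc1 (0.022), for Fbn1 Sap25 (0.012), for Thbs1 B230118H07Rik (0.029), for Thbs2 Ampd3 (0.050) and for Bgn Cst6 (0.059). For Lum, and for the gene nearest to Dcn, the WT counts were so low that the distance turns on the CPM added, and none is given. With 4 groups, many genes can share a pattern.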

How the data were processed

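The values are read counts that the authors deposited as whole numbers, without normalisation, for 31055 transcript rows. TopHat2 2.0.9, bedtools and the mm9 build appear, without roles, per the submitters' processing notes. Strandedness and the treatment of reads with several matches were not found in the sources. Another 4 sample columns, which no label matches, stayed out. Groups and replicate numbers follow the sample titles. The members and lists were chosen with earlier results of these data known. Of each symbol's rows, the one with most counts entered edgeR 4.0.16 (R 4.3.3): filterByExpr (14418 genes kept), TMM scaling, a coefficient per group over 8 libraries (residual df 4) and quasi-likelihood F tests, adjusted by Benjamini-Hochberg over all genes tested at a threshold of 0.05. Standard errors are log2 fold change, without sign, divided by the root of F. CPM use TMM-adjusted totals, and a fold against 0 uses 3 counts per library. Transcript lengths and exons came, by RefSeq accession, from GENCODE M21 (GRCm38), another build than the counts. All members are named; of each list, the most abundant gene and the largest called rise and fall in each comparison could be named; and for each member the nearest gene in pattern. Scripts were tested on simulated data. Alternatives were other scalings and filters, DESeq2 1.42.0, summed isoforms, only the 4 libraries compared, a replicate block and each library left out.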

Additional observations from a re-analysis of the deposited data

Results flagged for a closer look

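For 6 members the starvation response differed between the genotypes by the interaction term of the edgeR fit (KO-labelled minus WT, log2): Sparc by 1.31, Fbn1 by 0.75, Thbs1 by 0.52, Thbs2 by 0.40, Bgn by -0.27 and Fn1 by -0.22. Each was a smaller change in KO-labelled than in WT cells, and 64.5% of all tested genes were called in this comparison. The Thbs2 call was lost in 10 other settings, and the Bgn and Fn1 calls were lost with scaling by library totals. Groups of 2 libraries were not searched for outlying samples.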

How the results depend on the processing

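Of 705 values of single members under 16 other settings, 671 kept their direction and their side of the threshold, 3 came to 0.00 without a call, 12 lost the call, 8 gained one and 11 turned sign, 9 of them without a call. With library totals Thbs1 in fed KO-labelled against WT cells was 0.08 and Fn1 in the starved comparison 0.27, both called, and the differences of responses of Postn and Dcn were 0.12 and 0.04. The Thbs1 value was 0.01 with a minimum of 5 CPM, 0.02 with only the 4 libraries compared and -0.05 to 0.03 with 1 library left out, the highest without either starved WT replicate. Dcn in WT starvation was -0.46 to 0.04, the highest without starved WT replicate 1, and the Lum difference of responses -0.38 with DESeq2 and -2.32 to 1.84 with 1 library left out, the lowest without fed WT replicate 1. Scaling by library totals moved the median of all genes by -0.46 in WT starvation, -0.26 in KO-labelled starvation, 0.11 and 0.32 between fed and starved genotypes and 0.20 for the difference of responses, and the changes reported use TMM. Among called genes the higher share went from 45% to 28.2%, 49.4% to 37%, 46.4% to 55.1%, 52.6% to 67.4% and 52.9% to 67% in the same order. With totals 3397 genes were called higher in WT starvation (5296 with TMM), and 0 members had a lower difference of responses (2 with TMM). The Thbs2 difference of responses had an adjusted p of 0.118 with DESeq2 size factors, 0.258 with DESeq2, 0.0617 without a filter and 0.0777 with a minimum of 5 CPM. Leaving out each library in turn gave 2 to 4 members with a lower and 3 to 4 with a higher difference of responses. The replicate block (replicate number as a term) left 4 and 2 members called in that comparison and changed no member's call; the numbers name the libraries and do not pair them (r of -0.019 to 0.014 across genes between same-numbered deviations). The cause of these changes was not tested. Depth limits Eln, at 0 to 8 counts per library, and Lum in WT, at 0 to 2.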

Other observations

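The 3 deposited rows of Postn, which differ by optional exons, held the same 414, 324, 529 and 596 counts in the KO-labelled libraries and 18240, 18265 and 18300 counts in fed WT replicate 2, so the optional stretches added few counts of their own. The shorter part of the Fn1 V region (75 bases, chr1:71597673-71597747, GRCm38) added 13 to 44 counts in a WT library and 8 to 23 counts in a KO-labelled library. Its share of Fn1 counts was 0.00902 to 0.0166% in WT and 0.00323 to 0.00589% in KO-labelled libraries, so every KO-labelled library was lower. The mean was 50.7% lower in fed and 71.4% lower in starved KO-labelled cells. The 95% Wilson intervals, which cover counting error only, did not overlap between the genotypes in starved cells and did in fed cells, and the difference was not tested.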
